A study of Mus musculus with 18 samples.

Results

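Mouse CREB1 and mouse ATF1 were compared for the sequences they bind on DNA that carries 5-methylcytosine (5mC), with 2 protein binding microarrays for each protein. These 4 arrays were taken from the 18 arrays of the series by the protein and the cytosine named in their labels. In such an array a tagged protein is laid over double-stranded DNA probes, and the fluorescence of each probe reports how much protein it holds. Each protein was the basic leucine zipper (bZIP) DNA-binding domain with a short native stretch on either side, fused to glutathione S-transferase and expressed in vitro from a plasmid, so the whole proteins were not measured. To make the probes double-stranded, a second strand was synthesized on each from a nucleotide mix in which 5mC took the place of cytosine. The synthesized strand therefore carried 5mC at each of its cytosines and the printed strand carried none, which leaves every CpG hemi-methylated. The 8 arrays of the same proteins on DNA synthesized with plain cytosine (2 per protein) or with 5-hydroxymethylcytosine (5hmC, 2 per protein) served for contrast and for the estimate of the spread. The arrays of a group are labelled as replicates, but nothing says whether each used its own batch of protein, so the p-values here weigh differences against array-to-array scatter that may be purely technical.

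Proteins of the bZIP class bind DNA as dimers, and each monomer reads a half-site. CREB1 and ATF1 are close relatives in the CREB family, and their best known target is the cAMP response element (CRE), the palindrome TGACGTCA, which joins a pair of TGAC half-sites around a central CpG. C/EBP proteins, another branch of the class, read the half-site GCAA and bind the palindrome TTGCGCAA, and the PAR branch reads the half-site TTAC in TTACGTAA. Cytosine methylation of the central CpG is known to weaken CREB binding to the CRE. The study asked how modified cytosine alters the sites that these proteins bind, and the present comparison shows how far the closest pair of proteins had the same preferences on 5mC DNA.

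Every 8-mer is written 5′ to 3′ as it stands on the modified strand. The sites that the results turn on are shown here, with the C/EBP half-site and the base before it in capitals, or the central ACGT in capitals where a site has no GCAA on that strand.
CRE palindrome: tgACGTca
CRE half-site with a PAR half-site: tgACGTaa
CRE half-site with a C/EBP half-site (the CRE-C/EBP chimera): tgaCGCAA
PAR half-site with a C/EBP half-site: ttaCGCAA
C/EBP palindrome: ttgCGCAA
CRE-like half-site without CpG, with a C/EBP half-site: tgaTGCAA
PAR-like half-site without CpG, with a C/EBP half-site: ttaTGCAA
Strongest 8-mer of CREB1: ctaCGCAA
8-mer with CCAC before the C/EBP half-site: ccaCGCAA
8-mer with the chimera's last bases and an A after them: gaCGCAAa
The probes themselves had 35 variable bases, and 3 of them are shown to give the context of a site, which is in capitals.
Probe with the chimera: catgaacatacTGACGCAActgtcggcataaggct
Probe with the PAR-like half-site without CpG: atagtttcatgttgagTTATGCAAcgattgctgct
Probe with CCAC before the C/EBP half-site: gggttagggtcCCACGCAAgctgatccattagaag
Among 40330 probes, the chimera probe was the 82nd and 109th brightest on the CREB1 arrays and the 626th and 356th on the ATF1 arrays. The probe with the PAR-like half-site ranked 697 and 378 for CREB1 and 3774 and 2644 for ATF1. The probe with CCAC ranked 781 and 413 for CREB1 and 2153 and 965 for ATF1. Each was the probe of middle rank among the unsaturated probes that hold its site, and the chimera probe did not follow the order of its 8-mer, for which ATF1 ranked higher. For CTACGCAA such a probe, not shown, ranked 339 and 259 for CREB1 and 426 and 392 for ATF1. For GACGCAAA it ranked 1969 and 5529 for CREB1 and 2160 and 2015 for ATF1. These ranks overlapped, while for the 8-mer GACGCAAA ATF1 ranked higher.

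The authors deposited 1 z-score per 8-mer and array, and 64454 8-mers carried by 10 or more probes were kept. The z-score was close to linear in the 8-mer's own probe signal, taken as the median over its probes after background subtraction (Pearson r 0.97 to 0.989 over 8-mers on the 4 arrays). To bring the arrays to a common scale, each z-score was divided by the z-score that 0.1% of the array's 8-mers exceed, its reference level, and given in percent, called the scaled z-score below. That reference level was a z-score of 31.8 and 17.5 on the CREB1 arrays and of 10.2 and 11.2 on the ATF1 arrays, so the deposited z-scores of the proteins are not on one scale. Overlapping 8-mers share probes and are not independent of each other.

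One of the 4 arrays stood apart. CREB1 replicate 1 had a median probe signal of 1617 and a signal-to-background ratio of 2.01, against 4286 to 4592 and 5.9 to 8.2 on the other arrays. All 3 CREB1 arrays numbered 1 also ended at a highest signal of 65535, where every other array ended at 65528. CREB1 replicate 2 had a Pearson r of 0.845 (Spearman rho 0.694) over the kept 8-mers with CREB1 replicate 1, and of 0.858 (rho 0.811) with ATF1 replicate 1. The ATF1 arrays had an r of 0.879 (rho 0.825) with each other. By this measure a CREB1 array resembled an ATF1 array as much as it resembled its own replicate. The labels were checked against the CRE: on unmodified DNA the 15 8-mers of the CRE core had a mean scaled z-score of 107 ± 9.28 (SD, n = 2) for CREB1 and 112 ± 2.12 (SD, n = 2) for ATF1, so both preparations bound this family's defining site.

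On 5mC DNA the strongest sites of both proteins were largely the same, and most held the C/EBP half-site GCAA on the modified strand. Of the 200 8-mers with the best mean rank of each protein, 159 were shared (79.5% of each list). The CREB1 arrays shared 161 of their strongest 200 with each other and the ATF1 arrays 159, while pairs of arrays from different proteins shared 147 to 157. GCAA on the modified strand was found in 151 of the 200 for CREB1 (75.5%) and in 146 for ATF1 (73%), against 1.98% of all kept 8-mers. With a C before it, as CGCAA, it was in 115 for CREB1 and 103 for ATF1. The reverse orientation TTGC was in 3 and 4 of the 200 (1.5% and 2%), near its share of 1.97% among all kept 8-mers. ACGT, the centre of the CRE, was in 13 and 15 (6.5% and 7.5%), above its share of 1.98% among all kept 8-mers. The 41 8-mers on the CREB1 list alone held CGCAA in 22 cases, and the 41 on the ATF1 list alone in 10. Ranks do not depend on the scaling of an array.

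The 4-base partner before GCAA was also shared at the top. All but 1 of the 256 possible 8-mers of this form were kept. By mean scaled z-score the 5 strongest of both proteins were CTACGCAA, TGACGCAA, CGACGCAA, TGATGCAA and TTACGCAA, and 16 of the 20 strongest were common to both. The order at the top differed: CTACGCAA held rank 1 on both CREB1 arrays and rank 3 on both ATF1 arrays, while the chimera TGACGCAA held rank 1 on both ATF1 arrays and ranks 4 and 7 on the CREB1 arrays. CCAC was the 6th partner of CREB1 and the 11th of ATF1, TTAT the 9th and the 22nd, and TTGC, which completes the C/EBP palindrome, the 11th and the 6th.

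The CRE-C/EBP chimera TGACGCAA had scaled z-scores of 325 and 242 on the CREB1 arrays and 443 and 393 on the ATF1 arrays. The arrays did not overlap, and both ATF1 arrays were higher. The difference of CREB1 minus ATF1 was -134 ± 37.7 (SE), with an adjusted p of 0.187 in limma over all kept 8-mers, so it did not pass the test. Without CREB1 replicate 1 the difference was -176. After quantile normalization between arrays its adjusted p was 0.000118. With array weights per group, an alternative added after the data were seen, it was 0.00866. The direction depended on the scale: with the deposited z-scores the difference was 28.3 z-score units, as a percent of the 99th percentile it was 89.4, and in log2 signal it was 0.813, all with CREB1 higher. Saturated probes made up 4, 6, 5 and 6 of its 17 probes on CREB1 replicates 1 and 2 and ATF1 replicates 1 and 2.

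CTACGCAA, whose partner CTAC belongs to none of the half-sites named above, had scaled z-scores of 404 and 343 for CREB1 and 314 and 302 for ATF1. CREB1 was the higher on both arrays, with a difference of 65.8 ± 22.0 (SE, limma adjusted p 0.235, with 0.039 after quantile normalization and 0.319 with array weights). On CREB1 replicate 2, 10 of its 16 probes were saturated, so its value there is a lower bound. The PAR half-site with a C/EBP half-site, TTACGCAA, had values of 209 and 162 for CREB1 and of 122 and 133 for ATF1, again without overlap (difference 57.9 ± 20.5, limma adjusted p 0.256). Without CREB1 replicate 1 the differences were 35 for CTACGCAA and 34.2 for TTACGCAA, where arrays that do not overlap must keep CREB1 the higher.

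The palindromes did not separate the proteins. The CRE palindrome TGACGTCA had scaled z-scores of 106 and 68.4 for CREB1 and 65.7 and 76.7 for ATF1, and the arrays overlapped. Its ranks were 52 and 129 for CREB1 and 192 and 119 for ATF1, so it was outside the strongest 50 on every one of the 4 arrays. TGACGTAA, a CRE half-site with a PAR half-site, had values of 154, 101, 120 and 107 in the same order of arrays, and the PAR palindrome TTACGTAA had 51.2, 36.4, 55.6 and 41.7. Both overlapped as well. The same site turned round, TTACGTCA, was low on all 4 arrays but did not overlap, at 18.8 and 23.7 for CREB1 and 34.2 and 44.5 for ATF1. The C/EBP palindrome TTGCGCAA, with no saturated probe, had 101 and 133 for CREB1 and 119 and 126 for ATF1, which also overlapped. The arrays of the proteins therefore overlapped on all 3 palindromes. Mixed sites went both ways: TGACGCAA, TTACGCAA and TTACGTCA lay apart, while TGACGTAA overlapped. Lying apart was common among all kept sequences, with CREB1 higher in 29.3% and ATF1 higher in 25.4%. These few sites therefore do not set palindromes and mixed sites apart as classes.

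**Figure D1:**
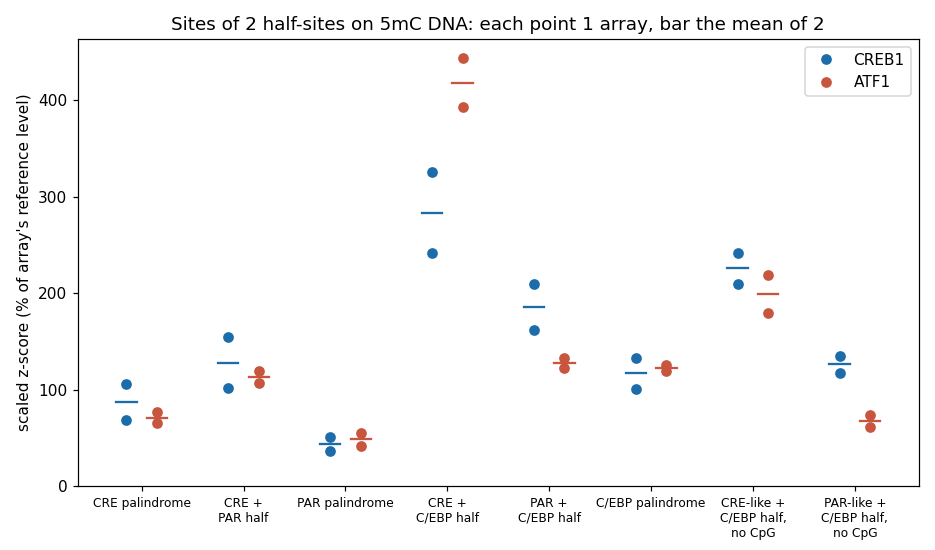
Scaled z-score (percent of the array's reference level, linear axis from 0) of 8 sites on 5mC DNA, with 1 point per array (2 for CREB1 in blue, 2 for ATF1 in red) and a bar at the mean of 2. The CRE half-site with a C/EBP half-site is at 443 and 393 for ATF1 and at 325 and 242 for CREB1, the PAR and PAR-like half-sites with a C/EBP half-site are higher for CREB1, and the palindromes overlap.

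A ratio of 2 sites on the same array is not moved when all its z-scores are multiplied by a factor, though it does depend on where the z-score has its zero. The ratios on 5mC DNA are therefore also given in probe signal above the array's median. The partner sites TGACGCAA and TTACGCAA differ in 1 base, which turns a CRE half-site into a PAR half-site in front of the same C/EBP half-site. The z-score of TGACGCAA was 1.55 and 1.49 times that of TTACGCAA on the CREB1 arrays and 3.62 and 2.95 times on the ATF1 arrays. In front of GCAA, ATF1 thus kept a wider gap between the CRE half-site and the PAR half-site, and the arrays did not overlap. In probe signal the same ratio was 1.68 and 1.83 for CREB1 and 3.36 and 2.76 for ATF1. In front of GTCA and GTAA the gap was wider on both CREB1 arrays instead. Scaled z-scores for CREB1 were 106 and 68.4 for TGACGTCA against 18.8 and 23.7 for TTACGTCA. For ATF1 they were 65.7 and 76.7 against 34.2 and 44.5. TGACGTAA had 154 and 101 for CREB1 against 51.2 and 36.4 for TTACGTAA, and 120 and 107 against 55.6 and 41.7 for ATF1. With 2 arrays against 2, an exact two-sided permutation test cannot go below p = 0.333, so no test was made of a single ratio.

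The ratio of TGACGCAA to CTACGCAA was also higher for ATF1, at 0.804 and 0.706 for CREB1 and 1.41 and 1.30 for ATF1. In probe signal it was 0.718 and 0.693 against 1.23 and 1.11. The value on CREB1 replicate 2 is an upper bound, because most probes of CTACGCAA were saturated there. Relative to the chimera, the CRE palindrome stood at 0.326 and 0.283 for CREB1 and at 0.148 and 0.195 for ATF1, with 0.35 and 0.259 against 0.139 and 0.187 in probe signal. CGACGCAA, which shares all but the first base of the chimera, stood at 0.792 and 0.96 of the chimera for CREB1 and at 0.531 and 0.703 for ATF1, but in probe signal the arrays overlapped, at 0.811 and 0.944 against 0.603 and 0.818. On both scales the chimera thus stood above CTACGCAA on the ATF1 arrays and below it on the CREB1 arrays. It was also set further above the CRE palindrome on the ATF1 arrays. For CGACGCAA the separation of the proteins depended on the scale.

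The same ratios were read on the other kinds of DNA. On unmodified DNA TGACGCAA was 4.8 and 3.2 times TTACGCAA for CREB1 and 5.74 and 3.59 times for ATF1, and the arrays overlapped. On 5hmC DNA it was 2.28 and 2.49 times for CREB1 and 3.91 and 3.49 times for ATF1, without overlap. Against CTACGCAA the chimera's ratio was higher for ATF1 without overlap on all kinds of DNA: 4.51 and 3.01 against 5.23 and 6.85 on unmodified DNA, and 3.37 and 2.58 against 4.48 and 5.61 on 5hmC DNA. A higher ratio for ATF1 was therefore not limited to 5mC DNA. Whether it differs between the kinds of DNA was not tested for the ratios.

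**Figure D2:**
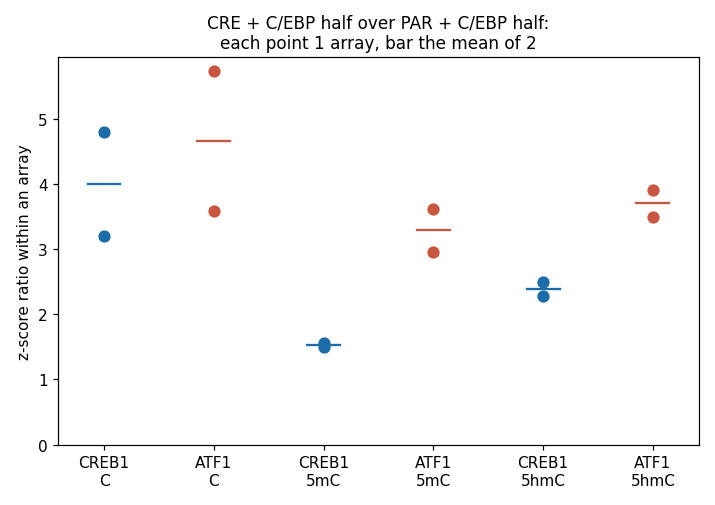
Ratio of the z-score of the CRE half-site with a C/EBP half-site to that of the PAR half-site with a C/EBP half-site within an array (linear axis from 0), for CREB1 (blue) and ATF1 (red) on unmodified (C), 5mC and 5hmC DNA, with 1 point per array and a bar at the mean of 2. On 5mC DNA the CREB1 arrays are at 1.55 and 1.49 and the ATF1 arrays at 3.62 and 2.95, while the arrays on unmodified DNA overlap.

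Without a CpG in the site, the CRE-like half-site TGAT and the PAR-like half-site TTAT could be compared in front of GCAA. TGATGCAA had scaled z-scores of 242 and 210 for CREB1 and 179 and 219 for ATF1, which overlapped, and it ranked 10, 10, 16 and 11 on the arrays. TTATGCAA had 117 and 135 for CREB1 and 73.5 and 61.0 for ATF1, without overlap and with no saturated probe. Its ranks were 46 and 31 for CREB1 and 142 and 208 for ATF1. The difference was 58.9 ± 28.6 (SE, limma adjusted p 0.388). It kept CREB1 higher in all 20 alternatives run, with a limma adjusted p never below 0.0677. Since the arrays did not overlap, only the other scalings could have turned this direction. TTATGCAA stood at 0.485 and 0.646 of TGATGCAA for CREB1 and at 0.41 and 0.279 for ATF1, and in probe signal at 0.54 and 0.65 against 0.423 and 0.286. In front of GCAA the gap between the CRE-like and the PAR-like half-site was thus wider on both ATF1 arrays, as with the CpG sites there.

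**Figure D3:**
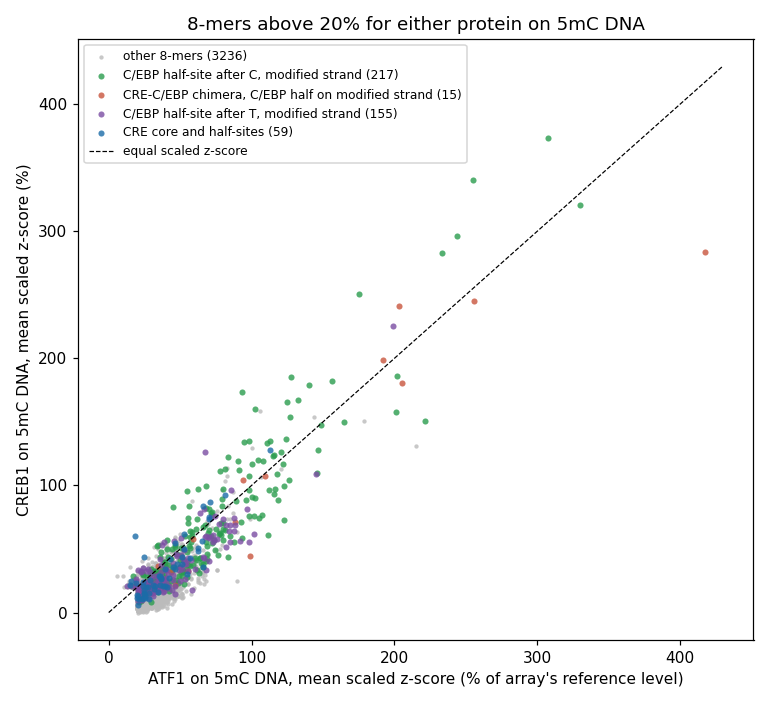
Mean scaled z-score (percent of the array's reference level) of CREB1 (2 arrays, vertical axis) against ATF1 (2 arrays, horizontal axis) on 5mC DNA for the 8-mers above 20 in either protein, coloured by motif, with counts in brackets and the dashed line at equal values. The strongest 8-mers of both proteins hold the C/EBP half-site on the modified strand, and the chimera at the far right has a mean of 418 for ATF1 and 283 for CREB1.

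The bases just before CGCAA were taken apart as 16 heptamers, each the mean of the 7 or 8 kept 8-mers that hold it. TACGCAA was the strongest on all 4 arrays, with a mean scaled z-score of 209 and 179 for CREB1 and 165 and 161 for ATF1. GACGCAA, the last bases of the chimera, followed closely for ATF1, at 0.946 and 0.966 of TACGCAA, but stood at 0.656 and 0.665 of it for CREB1. It was 2nd of 16 on both ATF1 arrays and 3rd on both CREB1 arrays. A larger share for ATF1 was common to nearly all. Of the 15 other heptamers, 14 made up a larger share of TACGCAA on both ATF1 arrays than on either CREB1 array. TACGCAA is the denominator of all 15 shares and was itself higher on both CREB1 arrays, so these are not 14 separate observations. Among the weaker ones CCCGCAA was at 0.386 and 0.423 for ATF1 and at 0.234 and 0.268 for CREB1. The exception was CACGCAA, at 0.658 and 0.683 for CREB1 and at 0.641 and 0.64 for ATF1. TACGCAA includes CTACGCAA, so the shares on CREB1 replicate 2 are upper bounds. Of the 16 heptamers, 3 had higher scaled means on both CREB1 arrays, 9 on both ATF1 arrays, and 4 overlapped. Among all kept 8-mers, single ones lay apart with CREB1 higher in 29.3% and with ATF1 higher in 25.4%.

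The bases just after CGCAA gave the other difference in order. CGCAATA was the strongest on all 4 arrays, with means of 204 and 160 for CREB1 and 157 and 157 for ATF1. CGCAATG stood at 0.793 and 0.861 of CGCAATA for ATF1 and at 0.512 and 0.631 for CREB1, and it was 2nd of 16 for ATF1 and 3rd for CREB1 on both of their arrays. CGCAATC was 2nd on both CREB1 arrays, and 3rd and 5th on the ATF1 arrays. CGCAACC stood at 0.372 and 0.394 for ATF1 and at 0.179 and 0.278 for CREB1. CGCAATG and CGCAACC were among 8 of the 15 other endings whose share of CGCAATA was larger on both ATF1 arrays than on either CREB1 array. For 0 endings was the share larger on both CREB1 arrays. These shares too have 1 denominator, CGCAATA, which was higher on both CREB1 arrays, so the count does not hold separate observations. Of these 16 heptamers 3 were higher on both CREB1 arrays, 6 on both ATF1 arrays, and 7 overlapped. Separation was about as common among single 8-mers, with CREB1 higher in 29.3% and ATF1 higher in 25.4% of all kept ones.

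In the test of single 8-mers, 0 of 64454 passed at an adjusted p of 0.05 in either direction (limma, 0.0% called each way), and 9199 (14.3%) had an unadjusted p under 0.05. The count depended on the processing. Quantile normalization gave 32 8-mers higher for CREB1 and 65 higher for ATF1 (0.0496% and 0.101%), and array weights per group gave 747 and 1269 (1.16% and 1.97%). The test shared 1 spread over 6 groups of unequal scatter: the group SD of scaled values was 3.54 for CREB1 and 4.28 for ATF1 on 5mC DNA, 1.35 and 1.65 on unmodified DNA, and 10.4 for ATF1 on 5hmC DNA. Separate values of the arrays without overlap were common among all 8-mers, with CREB1 higher in 18859 (29.3%) and ATF1 higher in 16348 (25.4%).

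Since none passed, the 8 largest differences without overlap in each direction were described, a choice made after their values were seen. Of those with CREB1 higher, 6 held ACGCA on the modified strand, and the other two were TTATGCAA and CGCAATAG. CCACGCAA had scaled z-scores of 186 and 162 for CREB1 and a mean of 93.5 ± 9.06 (SD, n = 2) for ATF1, which was lower on both arrays, the difference being 80.2 ± 13.8 (SE, limma adjusted p 0.1). It ranked 19 and 17 for CREB1 and 96 and 66 for ATF1, and it stood at 0.459 of CTACGCAA on CREB1 replicate 1, at 0.473 or less on CREB1 replicate 2, where CTACGCAA was saturated, and at 0.278 and 0.331 for ATF1. ACGCAATC had 253 and 248 for CREB1 and 206 and 144 for ATF1, and CGCAATAG had 163 and 157 for CREB1 and 96.1 and 108 for ATF1. These 3 kept CREB1 higher under every alternative run, 20 for each. Much of this was fixed by choosing sites without overlap. Leaving out an array cannot turn such a difference, and a block, weights or no trend leave its value unchanged. Only the other scalings could have turned it, and the deposited z-scores run higher on the CREB1 arrays.

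The differences with ATF1 higher were led by the chimera. GACGCAAA, the chimera's last 7 bases followed by an A, had 39.8 and 48.6 for CREB1 and 98.4 and 100 for ATF1, and ranked 264 and 257 for CREB1 and 69 and 64 for ATF1. Its difference of -55.1 ± 6.84 (SE) had an adjusted p of 0.0753 in limma, 0.0365 after quantile normalization and 0.0244 with array weights. In log2 signal the difference was 0.0429, with CREB1 higher. CCGCAATG had 53.6 and 68.9 for CREB1 and 111 and 112 for ATF1 (difference -50.1 ± 7.06, limma adjusted p 0.0766), with no saturated probe. Its difference turned to CREB1 higher with the deposited z-scores (2.66) and in log2 signal (0.211). CCCGCAAT had 159 and 142 for CREB1 and 209 and 234 for ATF1, which turned to CREB1 higher with the deposited z-scores (14), the 99th percentile (37.6) and log2 signal (0.691). It stood at 0.47 and 0.469 of TACGCAAT for CREB1 and at 0.633 and 0.709 for ATF1. In front of CGCAAT, CC in place of TA thus kept more of the signal on both ATF1 arrays.

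One 8-mer in this group held neither half-site. CACCACTA had scaled z-scores of 11.2 and 37.8 for CREB1 and 78.0 and 102 for ATF1, and ranked 1995 and 416 for CREB1 and 119 and 62 for ATF1. The difference was -65.5 ± 9.54 (SE, limma adjusted p 0.0818, with 0.00425 after quantile normalization and 0.00479 with array weights). ATF1 was the higher under all 19 alternatives run, of which only the other scalings could have turned a difference without overlap. On unmodified DNA the values were 1.27 and 0.352 for CREB1 and 3.02 and 1.63 for ATF1, and on 5hmC DNA they were 8.44 and 5.03 against 48.8 and 38.5. It was therefore near the array median for both proteins where the cytosine was unmodified.

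Strand mattered for both proteins. A site that is not a palindrome can lie either way on a hemi-methylated probe, so that the modified strand reads GCAA or its complement TTGC. TGACGCAA on the modified strand had 325 and 242 for CREB1 and 443 and 393 for ATF1, while the same site turned round, TTGCGTCA, had 16.1 and 29.1 for CREB1 and 33.4 and 23.0 for ATF1. TGATGCAA turned round, as TTGCATCA, had 9.06 and 2.05 for CREB1 and 7.89 and 4.58 for ATF1, against 242, 210, 179 and 219 the right way round. TGACGTAA was likewise above TTACGTCA, at 154 against 18.8 and 101 against 23.7 for CREB1, and at 120 against 34.2 and 107 against 44.5 for ATF1. The orientation with GCAA or GTAA on the modified strand was the higher on all 4 arrays for each of these sites.

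The size of the strand difference was compared between the proteins over 31558 pairs of an 8-mer and its reverse complement. In limma 37 pairs passed at an adjusted p of 0.05, 12 in one direction and 25 in the other (0.038% and 0.0792%), and 4671 (14.8%) had an unadjusted p under 0.05. The sign of a pair follows the alphabetically first of its 8-mers. Without any 1 of the 4 arrays on 5mC DNA no pair passed. None passed either with normal scores of ranks, with log2 signal, in the fit of all 18 arrays, in the fit of the 4 arrays alone or without the 3 CREB1 arrays numbered 1. CGCAATAG exceeded its reverse complement CTATTGCG by 155 and 144 for CREB1 and by 81.0 and 91.9 for ATF1, so that its strand difference was 63.4 ± 7.59 (SE) larger for CREB1 (limma adjusted p 0.0356). GCTACGCA behaved alike, with 144 and 162 for CREB1 and 96.1 and 93.0 for ATF1 (adjusted p 0.0483). GACGCAAA exceeded TTTGCGTC by 38.7 and 42.4 for CREB1 and by 94.5 and 101 for ATF1, a strand difference smaller by 57.3 for CREB1 (value -57.3 ± 5.17, adjusted p 0.0133). The reverse complement of each of these 3 was at 16.3 or below on all 4 arrays, so their strand differences repeat the level differences above.

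Lists of 8-mers by motif were described by their means and ranks. No 8-mer of any of the 24 lists passed the test of single 8-mers. None of all kept 8-mers did, so this says nothing about the lists themselves. The 15 8-mers of the chimera with GCAA on the modified strand had mean scaled z-scores of 118 and 107 for CREB1 and 132 and 129 for ATF1. Of these, 8, 9, 10 and 9 were among the strongest 200 on CREB1 replicates 1 and 2 and ATF1 replicates 1 and 2. ATF1 was higher without overlap for 8 of the 15 and CREB1 for 0, beside 25.4% and 29.3% of all kept 8-mers. With GCAA on the unmodified strand the same 15 pairs had means of 9.33 and 14.0 for CREB1 and 12.9 and 10.8 for ATF1, and none was among the strongest 200 on any of the 4 arrays.

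The 239 kept 8-mers with CGCAA on the modified strand outside the chimera and the C/EBP palindrome had means of 61.3 and 59.0 for CREB1 and 62.7 and 62.7 for ATF1. They were the bulk of the strongest sites, with 100 and 97 of the strongest 200 of CREB1 and 87 and 101 of those of ATF1. CREB1 was higher without overlap for 46 and ATF1 for 96, beside 29.3% and 25.4% of all kept 8-mers. The 200 with TGCAA on the modified strand had 26.2 and 27.0 for CREB1 and 33.7 and 33.3 for ATF1, and gave 24 to 27 of the strongest 200 on each array. After a purine in place of C or T, GCAA on the modified strand had means of 8.53 and 6.09 for CREB1 and 10.2 and 10.4 for ATF1 over 512 8-mers, of which 1 reached the strongest 200 on 1 ATF1 array.

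The CRE core had means of 27.5 and 26.3 for CREB1 and 26.8 and 27.2 for ATF1, the PAR site 29.7 and 24.2 against 27.6 and 27.3, and the C/EBP palindrome 53.1 and 61.0 against 60.8 and 58.8, and all 3 overlapped. The 80 8-mers of the CRE half-site list did not overlap in their means, at 22.0 and 26.3 for CREB1 and 31.1 and 27.5 for ATF1. CREB1 was higher without overlap for 8 members and ATF1 for 33, beside 29.3% and 25.4% of all kept 8-mers. The median difference of this list was -6.31 with scaled z-scores. It was 1.43 with the deposited z-scores, 0.517 after quantile normalization and 0.135 with normal scores of ranks. The AP-1 site of JUN and FOS proteins had 7.41 and 6.43 for CREB1 and 9.49 and 6.46 for ATF1, and the E-box, bound by another class of proteins, 7.17 and 12.8 against 10.0 and 11.5. Control lists of sites for other classes (the GC box, the sites of ETS, GATA and homeodomain proteins, and AT-only 8-mers) had means from -5.29 to 3.23 on the 4 arrays. The median difference of CREB1 minus ATF1 was below 0 in 17 of the 24 lists with scaled z-scores, but in 4 with the deposited z-scores, in 5 after quantile normalization and in 6 with normal scores of ranks, so the lists as wholes have no direction that holds across scalings. For the chimera list with GCAA on the modified strand this median was -12.3 (scaled), -1.72 (quantile) and -0.0445 (normal scores), but 7.99 with the deposited z-scores. Over all kept 8-mers it was 0.254 with scaled z-scores.

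**Figure D4:**
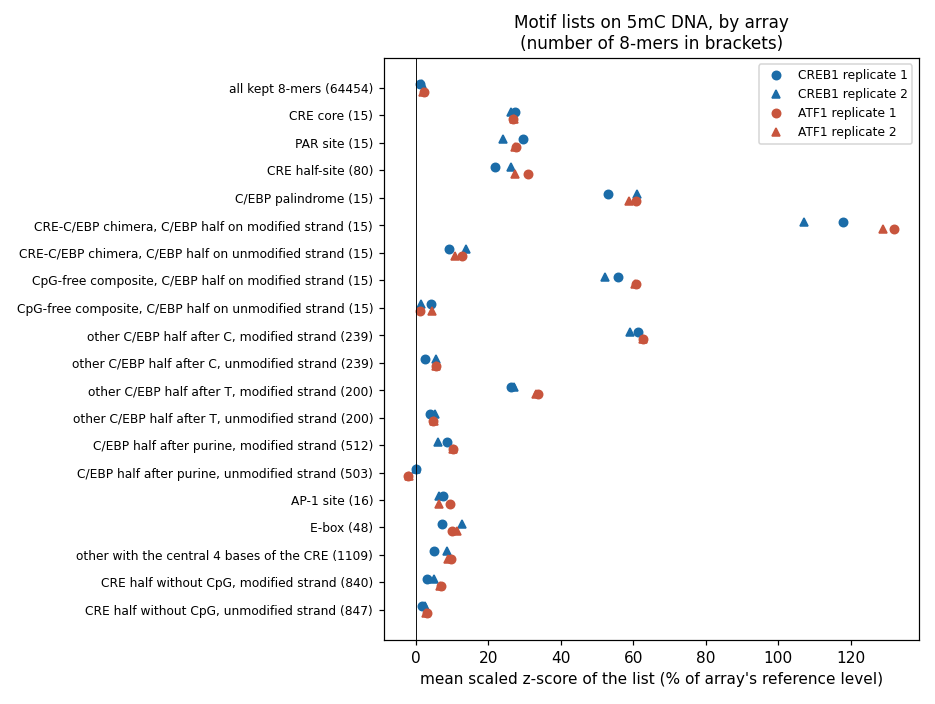
Mean scaled z-score (percent of the array's reference level, linear axis) of the motif lists on 5mC DNA, with 1 point per array (circles for replicate 1, triangles for replicate 2, CREB1 in blue, ATF1 in red), the number of kept 8-mers in brackets and the line at 0. The chimera with its C/EBP half-site on the modified strand is highest, at 118 and 107 for CREB1 and 132 and 129 for ATF1, and each C/EBP list is far lower on the unmodified strand. The shift of single lists between the proteins depends on the scaling.

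The comparison of CREB1 with ATF1 was itself compared between kinds of DNA. Against unmodified DNA, 0 of 64454 8-mers passed in limma (0.0% each way), with 2343 (3.64%) at an unadjusted p under 0.05. For the chimera TGACGCAA the scaled z-scores on unmodified DNA were 95.4 and 96.8 for CREB1 and 151 and 128 for ATF1. In scaled z-score ATF1 was thus higher on both kinds of DNA. The difference on unmodified DNA was -43.2 ± 37.7 (SE) and did not pass the test, and with the deposited z-scores CREB1 was the higher there. The difference on 5mC DNA minus that on unmodified DNA was -91.1 ± 53.4 (SE, limma adjusted p 1), so this change did not pass either. This last value turned positive with the deposited z-scores (5.51), the 99th percentile (267) and log2 signal (0.211).

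Against 5hmC DNA, 284 8-mers passed in limma, 161 with the larger CREB1 excess on 5mC DNA and 123 with the larger ATF1 excess there (0.25% and 0.191%), and 12251 (19.0%) had an unadjusted p under 0.05. The ATF1 arrays on 5hmC DNA scattered most, so the shared spread is too small for this comparison and its p-values can be too low. With array weights per group 0 passed. None passed without CREB1 5mC replicate 1 or 2, CREB1 5hmC replicate 1 or 2, or ATF1 5mC replicate 1 or 2, while 26505 passed without ATF1 5hmC replicate 1 and 19614 without ATF1 5hmC replicate 2. TACGCAAT had the most negative of the values that passed. On 5mC DNA it had 339 and 303 for CREB1 and 330 and 330 for ATF1, which overlapped, with ranks of 3, 2, 2 and 2. On 5hmC DNA it had 353 and 364 for CREB1 and 197 and 153 for ATF1, without overlap. The difference of differences was -193 ± 23.8 (SE, limma adjusted p 0.046). The arrays of the proteins thus overlapped for this sequence on 5mC DNA and lay apart on 5hmC DNA.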

How the data were processed

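Binding was measured on 18 protein binding microarrays, of which the 12 of CREB1 and ATF1 entered here, 2 per protein and kind of DNA. For each probe the authors deposited 2 intensities, the median spot signal and its local background, not normalized per the file headers. The score values are the authors' 8-mer z-scores, computed by them for each array and deposited in 1 table that covers 65530 of 65536 sequences, by steps not given in the sources used here. Files were matched to groups by their labels, and all columns of the z-score table belong to a sample.

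An 8-mer was read on the synthesized strand, the reverse complement of the printed sequence, and kept with 10 or more probes (median 17). Scaled z-scores were tested in limma 3.58.1 (R 4.3.3): 1 mean per group, no replicate block, a mean-variance trend, two-sided, Benjamini-Hochberg adjustment at 0.05 over all 64454 kept 8-mers (31558 pairs for strands), 6 residual and 3.814 prior degrees of freedom. Both interactions with the other kinds of DNA were contrasts of this fit. The test was tested on simulated data with 1 spread shared by all groups, which does not cover groups of unequal scatter. Signals at or above 65500 were taken as saturated. Ranks, overlaps, ratios, heptamers and the 24 lists are descriptions. Python 3.11.15, numpy 2.4.6, pandas 2.3.3 and matplotlib 3.10.9 did the rest.

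Named 8-mers were a grid of half-sites, the 5 strongest of each protein, up to 3 per direction for each other test that passed, and the largest differences without overlap; the members and lists were chosen with earlier results of these data known. Replicate numbers did not pair the arrays: deviations of the 5mC arrays with the same number had a correlation of -0.205 between the proteins. Alternatives were other scalings, log2 probe signal, other probe minimums, other sets of arrays, moderation without a trend, a replicate block and leaving out each array; array weights, a crossed block and leaving out all 3 CREB1 arrays numbered 1 were added after seeing the data. With 2 arrays a group, precision is limited by their number.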

Additional observations from a re-analysis of the deposited data

Results flagged for a closer look

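The difference between the proteins on 5mC DNA was tested against that on 5hmC DNA. In limma 284 8-mers passed this test at an adjusted p of 0.05. None passed with the deposited z-scores, with log2 signal or with the compared groups alone. TACGCAAT had the value -193 (difference of CREB1 minus ATF1 on 5mC DNA minus the same on 5hmC DNA, in scaled z-score), CAACGCGT had -46.6 and CAACACGC -45.2. CAACGCGT on 5mC DNA was at 17.5 and 30.1 for CREB1 and 46.3 and 48.8 for ATF1, and on 5hmC DNA at 26.3 and 24.8 against 2.73 and 2.62, so its order turned round. CGTGTAAT had 59.5, ACGGTAAT 48.7 and GATGTATA 44.4, each with an adjusted p of 0.046 and no GCAA. These last 3 were high only for ATF1 on 5hmC DNA among the 5mC and 5hmC arrays: CGTGTAAT was at 101 and 97.9 there, against 34.5 and 41.2 for CREB1 on 5hmC DNA and 20.3 to 24.8 on the 4 arrays with 5mC. The ATF1 arrays on 5hmC DNA scattered most, and 0 passed with array weights per group.

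The strand difference on 5mC DNA differed between the proteins for 37 pairs of an 8-mer and its reverse complement. With CREB1 minus ATF1 as the direction, CGCAATAG had 63.4, GCTACGCA 58.4 and CATTGCGG 52.9 in scaled z-score, and GACGCAAA had -57.3, GGAGCGAC -45.7 and CCGACGCA -43.9. CATTGCGG is the reverse complement of CCGCAATG, and it was between -3.38 and 1.39 on the 4 arrays, so its value restates that CCGCAATG was higher for ATF1. GGAGCGAC, which holds neither GCAA nor TGAC, was at 5.6 and 23.7 for CREB1 and at 50.5 and 51.8 for ATF1. CCGACGCA was at 19.7 and 34.2 for CREB1 and at 68.9 and 56.7 for ATF1. No pair passed when any 1 of the 4 arrays was left out.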

How the results depend on the processing

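For single 8-mers, 613 values were recomputed: 382 kept direction and side of the threshold, 36 newly passed, 171 no longer passed and 24 changed direction. The cause was not tested. The count that differs between CREB1 and ATF1 on 5mC DNA was 22 with deposited z-scores, 97 after quantile normalization, 45 with 1 or more probes, 2 in a fit of the 4 arrays, 195 without a trend, 2016 with array weights and 179 with both weights and quantile normalization, and 0 otherwise, leave-one-out included. The interaction with unmodified DNA gave 22 (deposited z-scores), 1 (log2 signal), 379 (weights) and 7 (weights and quantile), and 0 otherwise. That with 5hmC DNA gave 9 (quantile), 1 (normal scores), 507 (no trend), 5 (weights and quantile), 0 with deposited z-scores, the 99th percentile, log2 signal, 1 or more probes, all 18 arrays, the compared groups alone, weights and without the CREB1 arrays numbered 1, and 0 to 26505 leaving out 1 array. Strand pairs numbered 24 (deposited z-scores), 9 (99th percentile), 96 (quantile), 287 (1 or more probes), 1426 (weights), 141 (weights and quantile) and 0 with normal scores, log2 signal, all 18 arrays, the 4 arrays, without the CREB1 arrays numbered 1 and leaving out 1 array (0 to 0). With the replicate block 0 8-mers passed for 5mC DNA, 0 for either interaction and 2 strand pairs; in the 4 arrays alone the block gave 7, and crossed numbers, 10735. Lists with a median below 0 numbered 17, and 4 (deposited z-scores), 5 (quantile) and 6 (normal scores) otherwise.

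Changed directions came with deposited z-scores, the 99th percentile and log2 signal, in this order: TGACGCAA 28.3, 89.4 and 0.813; CCCGCAAT 14, 37.6 and 0.691; ACGCAATG 20.2, 138 and 0.983; for the interaction of TGACGCAA with unmodified DNA 5.51, 267 and 0.211; and for its strand difference 26.2, 75.4 and 0.473. With deposited z-scores and log2 signal alone, CGTGACGC had 8.94 and 0.548, CCGCAATG 2.66 and 0.211, TCCGCAAT 5.7 and 0.546 and CATTGCGG (strand) -2.23 and -0.156. GACGCAAA had 0.0429 in log2 signal. All of these but CATTGCGG had ATF1 higher in scaled z-score. Saturated probes bound the strongest sites from below, and 2 arrays a group limit every test.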

Other observations

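The strongest 100 8-mers of each protein on 5mC DNA shared 76 members by mean rank, and the strongest 500 shared 368 (73.6%). AAGCGCAA, a member of the C/EBP lists that is named here after its values were seen, had scaled z-scores of 57.5 and 53.7 for CREB1 and 109 and 66.8 for ATF1, and was the 24th partner of GCAA for CREB1 and the 12th for ATF1. ACACGCAA had 130 and 117 for CREB1 and 124 and 107 for ATF1, which overlapped.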
